A study of Mus musculus with 34 samples.

Results

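Cells leave G1 and begin to copy their DNA under the control of a small set of kinases, and 10 genes of that set were followed through 13 groups of mouse T cells. They were taken by symbol from a deposited count table of 48526 genes. They comprise the D cyclins Ccnd2 and Ccnd3, the E cyclins Ccne1 and Ccne2, the kinases Cdk4, Cdk6 and Cdk2, and the inhibitors Cdkn1b (p27), Cdkn2c (p18) and Cdkn2d (p19). All 10 passed the filter on low counts, which left 18292 genes to test.

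D cyclins are made in response to growth signals and activate CDK4 and CDK6, which begin to phosphorylate the retinoblastoma protein and so release E2F factors. E cyclins, themselves E2F targets, then activate CDK2 and carry the cell into S phase. The INK4 proteins p18 and p19 bind CDK4 and CDK6, whereas p27 blocks CDK2 complexes and keeps naive T cells at rest until signals through the antigen receptor, CD28 and the IL-2 receptor lead to its loss.

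In GENCODE M21 coordinates of GRCm38, the table's D cyclin genes lie as follows: Ccnd2 (ENSMUSG00000000184.12) at chr6:127125162-127152193 on the minus strand and Ccnd3 (ENSMUSG00000034165.16) at chr17:47505051-47599691 on the plus strand. The E cyclin genes are Ccne1 (ENSMUSG00000002068.16) at chr7:38097984-38107534 on the minus strand and Ccne2 (ENSMUSG00000028212.16) at chr4:11191351-11204779 on the plus strand. The kinase genes are Cdk4 (ENSMUSG00000006728.12) at chr10:127063534-127067920 on the plus strand, Cdk6 (ENSMUSG00000040274.11) at chr5:3341485-3531008 on the plus strand and Cdk2 (ENSMUSG00000025358.15) at chr10:128697939-128705031 on the minus strand. The inhibitor genes are Cdkn1b (ENSMUSG00000003031.14) at chr6:134920401-134925513 on the plus strand, Cdkn2c (ENSMUSG00000028551.14) at chr4:109660876-109667189 on the minus strand and Cdkn2d (ENSMUSG00000096472.1) at chr9:21288410-21291407 on the minus strand. All 10 are annotated as protein-coding, and counts are over the whole gene.

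Total RNA without its ribosomal part was sequenced from T cells purified by negative selection from spleens of C57BL/6 mice aged 6 to 12 weeks. Cells of every stimulated group received antibodies to CD3 and CD28 together with recombinant IL-2, for 24 h (day 1) or 72 h (day 3). On each of those days DKI, Ars2 KO, CD28 Y170F and CD28 AYAA had 3 libraries, and CD28 KO and WT had 2. Unstimulated WT cells (day 0, 2 libraries) were the baseline named in the series' design text. Ars2 KO cells carry a deletion of Srrt, which encodes ARS2, a partner of the RNA cap-binding complex, and the promoter driving its deletion is not given in the sources used here. In the cytoplasmic tail of the costimulatory receptor CD28, the AYAA allele changes a motif rich in proline, and Y170F one built on tyrosine. DKI is a further CD28 allele, and the labels do not say which changes it carries. Replicates are described as biological, and p-values measure the spread between them.

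Libraries summed to 8348946 to 47762625 expected counts. The 6 DKI libraries and WT number 4 on both days were the shallowest, at no more than 10620034, so WT number 4 is the WT library of like depth to DKI. The CD28 KO libraries at day 1 (15686963 and 18859114) lay between WT number 4 (10412781) and WT number 1 (26393372). The WT libraries differed from each other at day 1 and day 3, and Y170F number 1 at day 3 stood apart from the other two. Counts of calls that moved when one of them was left out are given beside the result. In most cases the share of all genes called in that fit is added. A count from another fit without such a share cannot be set against the background of the main fit. Srrt, the gene targeted in Ars2 KO, stood at 33.8, 64.8 and 33.5 CPM (on TMM-scaled library sizes) in Ars2 KO at day 1, against 244 and 131 in WT, and at 108, 146 and 105 in Ars2 KO at day 3, against 245 and 145 in WT. The groups did not overlap at day 1, whereas at day 3 the highest Ars2 KO library, number 2, reached the level of WT number 4. The whole-gene Cd28 count does not check the CD28 KO label: it was 482 and 476 CPM in libraries labelled CD28 KO at day 1, against 387 and 411 in WT. At day 3 it was 212 and 214 CPM in libraries labelled CD28 KO, against 474 and 587 in WT. All 12 T cell markers were detected in every group. RNA for Xist exceeded that of Y-linked Ddx3y in both unstimulated libraries and in none of the 4 stimulated WT and 6 DKI libraries, so unstimulated and stimulated WT libraries also differ in these sex-linked RNAs. It did so in 2 of 3 Ars2 KO, 1 of 2 CD28 KO, 1 of 3 CD28 AYAA and 1 of 3 CD28 Y170F libraries on each day, so these genotypes differ from WT of the same day in them as well, and their part in the results was not tested.

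Promoter windows from RefSeq (GRCm38.p6, 250 bases before to 50 after the start) matched 8 of the 10 genes with 10 windows, and Ccnd2 and Ccne2 had none. Cdk4, Cdk2 and Cdkn1b are shown as examples, each with a motif that its window holds. Across the group means Cdk4 and Cdk2 moved together (r = 0.93), and Cdkn1b moved against Cdk4 (-0.79) and Cdk2 (-0.57). This does not single them out among genes with a window: Ccne1 followed Cdk2 at 0.97, and Cdkn1b ran against Cdk6 at -0.84. The Cdk4 window (chr10:127063285-127063584, plus strand) held 4 copies of the E-box letters CACGTG, which MYC and related factors can bind. The Cdk2 window (chr10:128705002-128705301, minus strand) held 1 match to the E2F letters searched, TTTCCCGC, TTTGGCGC, TTTCGCGC or TTTGCCGC. The Cdkn1b window (chr6:134920151-134920450, plus strand) held 3 copies of CCAAT. Capitals mark these motifs on either strand.
Cdk4: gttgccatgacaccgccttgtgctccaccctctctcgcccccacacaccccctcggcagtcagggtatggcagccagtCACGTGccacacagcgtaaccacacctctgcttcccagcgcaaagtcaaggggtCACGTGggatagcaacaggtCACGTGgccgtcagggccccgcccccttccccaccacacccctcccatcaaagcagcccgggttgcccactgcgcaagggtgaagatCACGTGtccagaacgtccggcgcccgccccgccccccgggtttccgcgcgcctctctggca
Cdk2: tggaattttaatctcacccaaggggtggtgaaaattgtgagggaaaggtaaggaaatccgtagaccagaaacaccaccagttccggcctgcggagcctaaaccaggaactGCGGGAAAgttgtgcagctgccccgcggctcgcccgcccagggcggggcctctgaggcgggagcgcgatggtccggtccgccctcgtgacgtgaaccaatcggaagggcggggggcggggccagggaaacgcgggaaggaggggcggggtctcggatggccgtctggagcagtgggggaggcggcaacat
Cdkn1b: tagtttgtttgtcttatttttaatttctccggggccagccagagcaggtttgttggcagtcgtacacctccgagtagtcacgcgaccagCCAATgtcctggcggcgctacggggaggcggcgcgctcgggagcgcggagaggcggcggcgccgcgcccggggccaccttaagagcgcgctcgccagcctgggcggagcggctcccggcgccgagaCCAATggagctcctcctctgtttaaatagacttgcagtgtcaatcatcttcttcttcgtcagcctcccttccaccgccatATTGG

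Of 32851 windows of the same length, 7.15% held at least 1 E-box and 0.0244% held 4 or more. The E2F letters were found in 2.26% of windows and CCAAT in 37.4%, with 3 or more copies of CCAAT in 3.37%. Among the windows of these genes, that of Cdk2 alone held the E2F letters, and that of Ccne1 did not. CCAAT was also in the Cdk2 and Cdkn2d windows, in one of the Cdkn2c windows and in one of the Ccnd3 windows. The Cdk6 window and one of the Cdkn2c windows held 1 E-box each. One of the Ccnd3 windows held the FOXO letters GTAAACA (3.65% of windows), and the Cdkn1b window did not. The STAT letters TTCNNNGAA (8.30%) were in none of the 10 windows. The GC box letters GGGCGG (35.7% of windows) were present in windows of every matched gene other than Cdk6. Each motif was searched by itself on both strands, without regard to overlap with another. These matches describe letters in a window and not bound sites.

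Stimulation for 24 h raised both D cyclins, both E cyclins and all 3 kinases in WT cells and lowered the inhibitors Cdkn1b and Cdkn2d. In the fit, 7 of the 10 genes rose and 2 fell, where 51.3% of all genes tested were called, 24.2% higher and 27.2% lower (edgeR's quasi-likelihood test, Benjamini-Hochberg adjusted p under 0.05). The median log2 fold change was 0.81 over the 10 genes and -0.02 over all genes. Ccnd2, a D cyclin induced by mitogens, stood at 1262 and 1327 CPM at day 1, against 194 and 192 in unstimulated cells. Its log2 fold change was 2.75 (adjusted p = 4e-13, SE 0.16). Cdk6, one of the kinases that D cyclins activate, stood at 565 and 519.9 CPM, against 84.4 and 102 unstimulated. The log2 fold change of Cdk6 was 2.54 (adjusted p = 7.3e-07, SE 0.33). Neither gene's groups overlapped, as in all of the 10 but Cdkn2c, and these were the largest rises among the 10.

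Ccnd3, the D cyclin required for thymocyte expansion, changed less, with 242 and 238 CPM at day 1 against 126 and 144 unstimulated and a log2 difference of 0.83 (adjusted p = 1.1e-05, SE 0.13). Ccne1 stood at 53.0 and 24.4 CPM at day 1, against 17.8 and 17.4 unstimulated. Ccne2 stood at 54.2 and 28.2 CPM at day 1, against 11.1 and 13.1 unstimulated. WT number 1 held the higher value for both, and number 4 lay nearer to the unstimulated level. Log2 fold changes were 1.15 (adjusted p = 0.0015, SE 0.29) for Ccne1, 1.78 (adjusted p = 8.4e-05, SE 0.33) for Ccne2, 0.80 (adjusted p = 0.0025, SE 0.21) for Cdk4 and 0.58 (adjusted p = 0.015, SE 0.19) for Cdk2, the E cyclin partner. Without WT number 1 at day 1, the calls of Ccne1 (0.43, adjusted p = 0.28), Cdk4 (0.46, adjusted p = 0.13) and Cdk2 (0.20, adjusted p = 0.51) were lost.

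Among the inhibitors, Cdkn1b fell to 90.8 and 125 CPM at day 1, against 196 and 205 unstimulated, a log2 difference of -0.90 (adjusted p = 0.0011, SE 0.21). Cdkn2d fell to 15.0 and 11.8 CPM at day 1, against 38.3 and 35.1 unstimulated, a log2 difference of -1.44 (adjusted p = 6.2e-10, SE 0.12). Cdkn2c stood at 14.2 and 6.18 CPM at day 1 and 10.7 and 9.81 unstimulated, a log2 difference of 0.05 (adjusted p = 0.89, SE 0.23), and its WT day 1 libraries lay on either side of the unstimulated ones. Without WT number 1 the Cdkn2c value turned to -0.78 (adjusted p = 0.015). Unstimulated cells also carried more RNA of other cell types. The 12 B cell markers summed to 25.2 to 61.1 CPM in WT at day 1 and 1170.1 to 1300.1 unstimulated, and the 14 myeloid markers to 21.5 to 30.4 CPM at day 1 and 346 to 361 unstimulated. At day 1 the myeloid marker Cd14 was at 0, and all of these B cell and myeloid markers were called lower at day 1. Their part in these differences was not tested, and in bulk RNA a shift in the share of a cell type cannot be told apart from a shift in RNA per cell.

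Between day 1 and day 3 the 3 inhibitors rose and Ccnd2 fell in WT cells, while the E cyclins and kinases gave no call (4 of 10 called, background 29.5%). Cdkn2c stood at 55.6 and 61.6 CPM at day 3, against 14.2 and 6.18 at day 1, and Cdkn2d at 57.1 and 55.1 at day 3, against 15.0 and 11.8 at day 1. On the log2 scale Cdkn2c rose by 2.46 (adjusted p = 2.7e-08, SE 0.24) and Cdkn2d by 2.05 (adjusted p = 3.8e-11, SE 0.12). Cdkn1b stood at 213 and 223 CPM, a log2 difference of 1.02 (adjusted p = 0.00071, SE 0.22), and Ccnd2 fell to 459 and 372 CPM, a log2 difference of -1.64 (adjusted p = 1.6e-08, SE 0.15). Cdk6 stood at 431 and 236 CPM at day 3, and its log2 fold change of -0.70 (adjusted p = 0.1, SE 0.32) missed the threshold. Without WT number 1 of day 1, 6 genes were called (background 22%), with Ccne1 higher by 1.16 (adjusted p = 0.01) and Cdk2 by 0.75 (adjusted p = 0.02). Cdk6 was called lower without WT number 1 of day 3 (-1.19, adjusted p = 0.028), where 5 genes passed (background 21.5%), and also without the filter and with the replicate block. Against unstimulated cells, 9 of the 10 genes were higher in WT at day 3 (background 50.5% called, 23.5% higher), all but Cdkn1b, its log2 fold change being 0.12 (adjusted p = 0.66, SE 0.21).

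**Figure D1:**
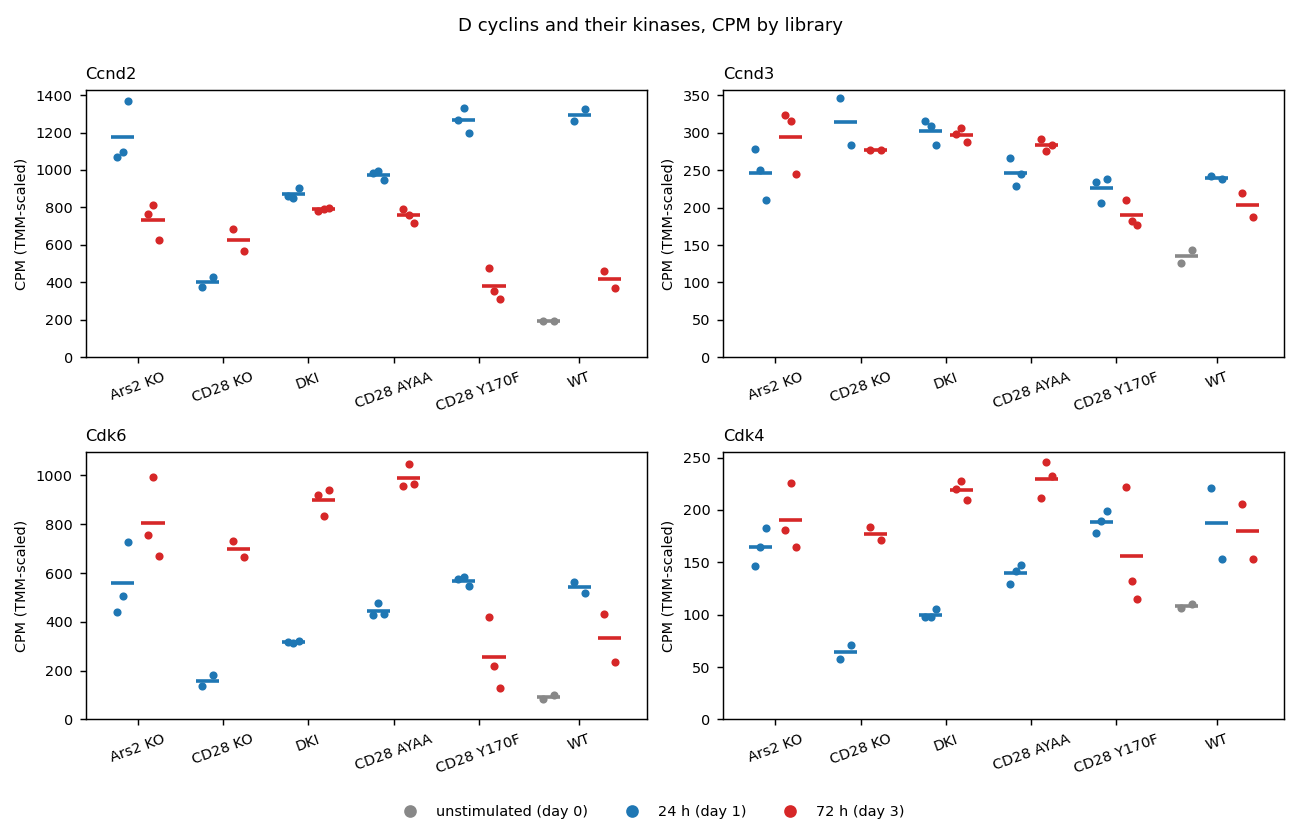
CPM (TMM scaled) of Ccnd2, Ccnd3, Cdk4 and Cdk6 in each library (points) with the group mean (bar), by genotype on the x axis, in gray for unstimulated cells, blue for 24 h and red for 72 h. Cdk6 at 72 h lies between 665 and 1048 CPM in Ars2 KO, CD28 KO, DKI and CD28 AYAA, against 128.5 to 431 CPM in CD28 Y170F and WT.

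**Figure D2:**
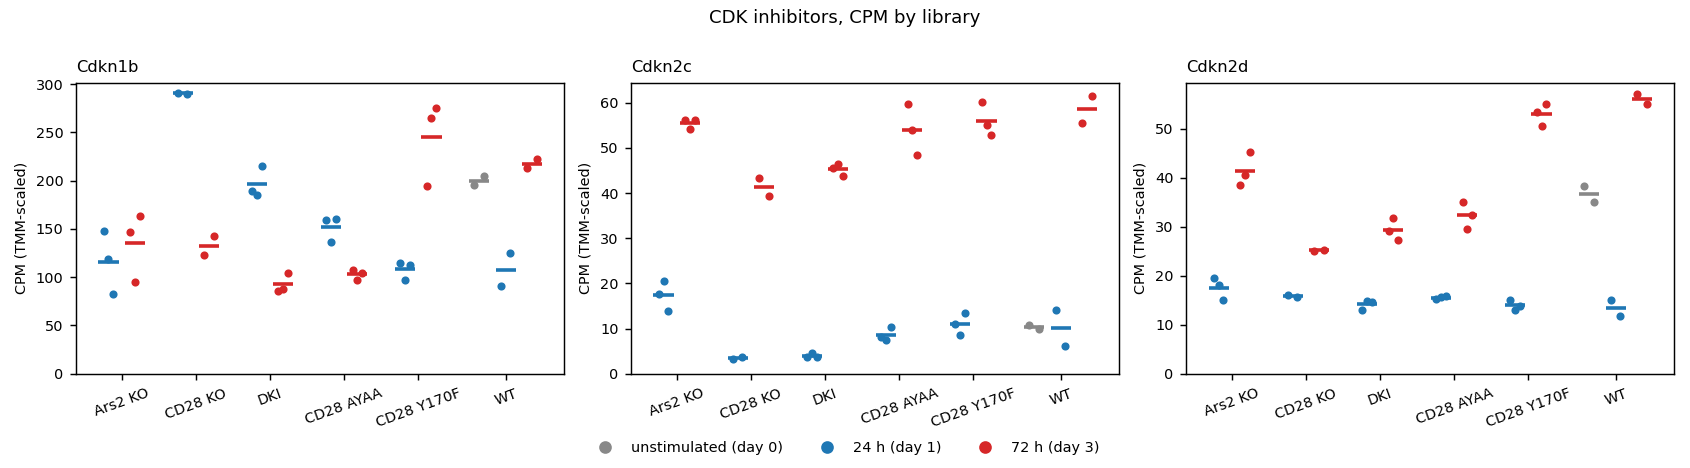
CPM (TMM scaled) of Cdkn1b, Cdkn2c and Cdkn2d in each library (points) with the group mean (bar), by genotype, in gray for unstimulated cells, blue for 24 h and red for 72 h. Cdkn2c lies at or below 20.4 CPM in every library at 24 h and at or above 39.3 CPM in every library at 72 h.

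Levels can be set against each other only per length of exon. On CPM per kb of summed exons, Ccnd2 was above Ccnd3 in every group by its mean, with a ratio in WT of 1.34 ± 0.133 (SD, n = 2) unstimulated, 5.03 ± 0.246 at day 1 and 1.90 ± 0.0686 at day 3. In libraries labelled CD28 KO at day 1 the ratio was 1.22 ± 0.281, and with the longest transcript as length it was 0.795 there and 0.874 in unstimulated WT, below 1. Cdk6 stood below Cdk4 in WT, at a ratio of 0.200 ± 0.0207 unstimulated, 0.690 ± 0.136 at day 1 and 0.422 ± 0.0901 at day 3. At day 3 the Cdk6 to Cdk4 ratio was 0.982 in Ars2 KO, 0.915 in CD28 KO, 0.957 in DKI and 1.00 in CD28 AYAA, against 0.362 in CD28 Y170F. With the longest transcript as length it was lower, at 0.753 in Ars2 KO, 0.701 in CD28 KO, 0.734 in DKI and 0.767 in CD28 AYAA, against 0.278 in CD28 Y170F. The summed D cyclins stood at 0.817 ± 0.00216 times the Cdkn1b level in unstimulated WT, 7.12 ± 1.40 times at day 1 and 1.41 ± 0.237 times at day 3. In CD28 KO at day 1 that ratio was 1.23 ± 0.0153, and in DKI 2.96 ± 0.201 (SD, n = 3), and their libraries lay below both WT libraries of that day. With the longest transcript as length the D cyclin to Cdkn1b ratio was higher, 11.5 in WT at day 1, and the order of these groups was kept.

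**Figure D3:**
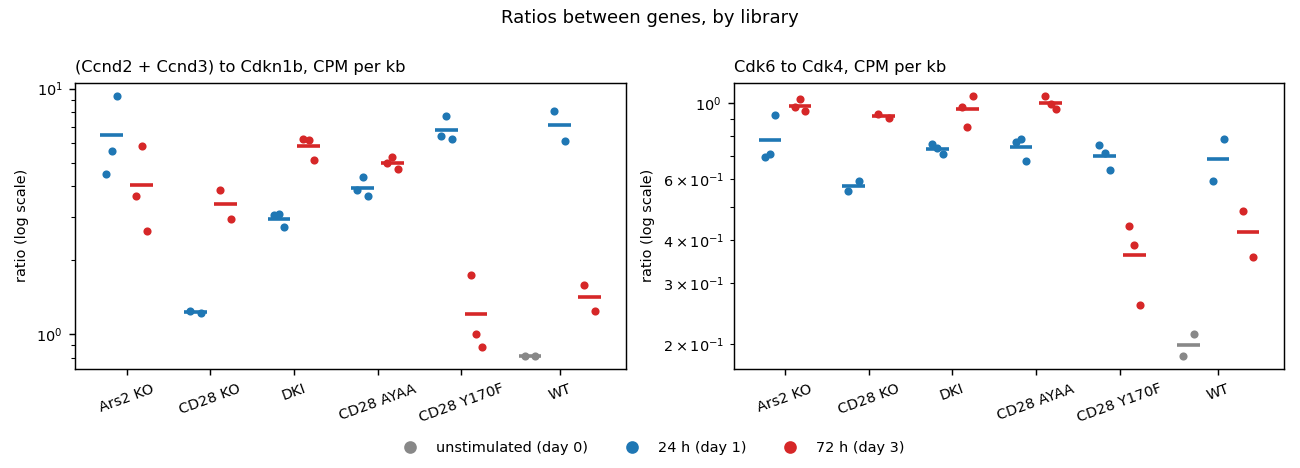
Ratios of CPM per kb of exons in each library (points) with the group mean (bar) on a log axis, for summed D cyclins to Cdkn1b (left) and Cdk6 to Cdk4 (right), by genotype, in gray for unstimulated cells, blue for 24 h and red for 72 h. In WT the D cyclin to Cdkn1b ratio has means of 0.817 unstimulated, 7.12 at 24 h and 1.41 at 72 h.

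In libraries labelled CD28 KO at day 1, both E cyclins, all 3 kinases, Ccnd2 and Cdkn2c were lower than in WT, and Cdkn1b and Ccnd3 were higher. Of the 10 genes, 7 were lower and 2 were higher, where 43.3% of all genes were called, 24.7% lower and 18.6% higher. The median log2 fold change was -1.56 over the 10 genes and 0.02 over all genes. Ccnd2 stood at 378 and 429.6 CPM in CD28 KO, against 1262 and 1327 in WT, which is a log2 change of -1.68 (adjusted p = 9.2e-09, SE 0.15). Ccne2 stood at 5.64 and 7.30 CPM in CD28 KO, against 54.2 and 28.2 in WT, which is a log2 change of -2.68 (adjusted p = 2e-06, SE 0.36). Cdk6 stood at 138 and 181 CPM in CD28 KO, against 565 and 519.9 in WT, which is a log2 change of -1.77 (adjusted p = 9.7e-05, SE 0.32). In these 3 genes every library labelled CD28 KO lay below every WT library. The groups did not overlap in any of the 10 genes, Cdkn2d, which was not called, included. The share of all genes without overlap is not given here.

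Ccne1 had a log2 fold change of -1.98 (SE 0.30), Cdk4 of -1.55 (SE 0.21), Cdk2 of -1.27 (SE 0.20) and Cdkn2c of -1.58 (SE 0.26). Cdkn1b moved the other way, with 291 and 289.9 CPM in CD28 KO, against 90.8 and 125 in WT, which is a log2 change of 1.43 (adjusted p = 1.1e-05, SE 0.22). Its level in these libraries was above that of every other library of the series. Ccnd3 was 346 and 283 CPM in CD28 KO, against 242 and 238 in WT, which is a log2 change of 0.39 (adjusted p = 0.018, SE 0.13), whose call was lost against WT number 1 alone (0.38, adjusted p = 0.066) and kept against WT number 4 alone (0.46, adjusted p = 0.04). Cdkn2d did not pass, at 0.23 (adjusted p = 0.14, SE 0.12). Against WT number 1 alone 8 of the 10 genes were called (background 39%), and against WT number 4 alone 10 (background 25.5%). The 12 B cell markers, 6 of them called higher and none at 0, summed to 153 to 211 CPM in CD28 KO, against 25.2 to 61.1 in WT, and the 6 NK cell markers, none of them called or at 0, summed to 40.1 to 80.4 CPM in CD28 KO, against 92.7 to 114 in WT. How many B cell markers were called lower is not given here, and the part of these markers in the differences was not tested.

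Set against unstimulated WT, the libraries labelled CD28 KO at day 1 held less of the E cyclins, Cdk2 and Cdk4 and more of the D cyclins and Cdk6 (all 10 genes called, background 52.2%). Log2 fold changes were 1.06 for Ccnd2, 1.22 for Ccnd3 and 0.78 for Cdk6. They were -0.83 for Ccne1, -0.90 for Ccne2, -0.69 for Cdk2 and -0.75 for Cdk4. Cdkn1b was higher at 0.54, and Cdkn2c (-1.54) and Cdkn2d (-1.21) were lower. B cell markers summed to 1170 to 1300 CPM in the unstimulated libraries, against 153 to 211 in CD28 KO at day 1. Myeloid markers summed to 346 to 361 CPM unstimulated, against 24.7 to 32.6 in CD28 KO. The part of these markers and of the sex-linked RNAs was not tested. With 1 library fewer on either side, 5 or 6 genes remained called (background 37.7% to 40.9%): Ccnd2, Ccnd3, Cdkn2c and Cdkn2d each time, and Ccne1, Ccne2 and Cdkn1b in none. In DKI at day 1, 5 genes were called against unstimulated WT (background 49.1%), with Ccnd2, Ccnd3 and Cdk6 higher and Cdkn2c and Cdkn2d lower. CD28 AYAA at day 1 also had 5 (background 50%), with Ccnd2, Ccnd3, Ccne2 and Cdk6 higher and Cdkn2d lower. These comparisons share the unstimulated libraries, and in Ars2 KO (10 called, background 53.6%) and CD28 Y170F (9 called, background 54.7%) both E cyclins and all 3 kinases were higher. At day 3, over the same unstimulated libraries, 10 genes were called in DKI (background 58.1%), 9 in Ars2 KO (56.8%), 9 in CD28 KO (52.1%), 9 in CD28 Y170F (53.8%) and 9 in CD28 AYAA (60.2%). Both E cyclins, both D cyclins, Cdk4, Cdk6 and Cdkn2c were higher in each of the 5, and Cdkn1b was lower in all but CD28 Y170F.

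In DKI at day 1, Ccnd2, Ccne1, Ccne2, Cdk2, Cdk4, Cdk6 and Cdkn2c were lower than in WT and Ccnd3 and Cdkn1b higher. That is 9 of the 10 genes, where 26% of all genes were called, 15.8% lower and 10.3% higher, and the comparison shares its WT libraries with that of CD28 KO. The median log2 fold change was -0.84 over the 10 genes and 0.00 over all genes. Ccnd2 stood at 862, 852 and 905 CPM in DKI, against 1262 and 1327 in WT, which is a log2 change of -0.57 (adjusted p = 0.0031, SE 0.13). Ccne2 stood at 10.2, 5.94 and 10.5 CPM in DKI, against 54.2 and 28.2 in WT, with -2.23 (adjusted p = 1.6e-05, SE 0.32), and Ccne1 had -1.67 (adjusted p = 9.4e-05, SE 0.27). Every DKI library lay below every WT library in these genes, and of the 10 genes only Cdkn2d overlapped between the groups. Cdk6 had 318, 312 and 321 CPM in DKI, against 565 and 519.9 in WT, which is a log2 change of -0.77 (adjusted p = 0.045, SE 0.28). Cdkn1b was 189.5, 186 and 215 CPM in DKI, against 90.8 and 125 in WT, with 0.87 (adjusted p = 0.0029, SE 0.20). Against WT number 4 alone, the library of like depth, only Ccne2 was called, at -1.62 (adjusted p = 0.0097), where the background was 3.52%, and Ccnd2 stood at -0.56 (adjusted p = 0.061). Against WT number 1 alone 7 genes were called (background 25.8%). The 6 NK cell markers, 1 called higher, none lower and none at 0, summed to 56.4 to 67.9 CPM in DKI, against 92.7 to 114 in WT. The 12 T cell markers, 5 called higher and none at 0, summed to 3193 to 3387 CPM in DKI, against 2944 to 2995 in WT. Neither sum overlapped between the groups. How many T cell markers were called lower is not given here, and the part of these markers was not tested.

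DKI and CD28 KO differed from each other at day 1 in Ccnd2, Cdk4 and Cdk6 (3 of 10 genes higher in DKI, background 9.06% called and 6.3% higher). The log2 fold changes were 1.11 (adjusted p = 1.2e-05, SE 0.14) for Ccnd2, 0.64 (adjusted p = 0.041, SE 0.20) for Cdk4 and 0.99 (adjusted p = 0.037, SE 0.30) for Cdk6. The Cdk4 and Cdk6 calls were lost when any of the 5 libraries was left out, and Ccnd2 was kept each time. The E cyclins did not pass, with 0.31 (adjusted p = 0.56, SE 0.29) for Ccne1 and 0.45 (adjusted p = 0.46, SE 0.35) for Ccne2. Depth separates these genotypes completely (8348946 to 10620034 counts in DKI, 15686963 to 18859114 in CD28 KO). With a depth term estimated from the WT libraries, 5 genes were called, Ccne1 and Ccne2 being added (background 9.9%). At day 3 no gene was called between them (background 0.454%), with 2 at an unadjusted p under 0.05, 0 by DESeq2 or limma-voom and 6 in a fit to these groups alone. The 0.454% belongs to the main fit. The share of all genes called in the fit to these groups alone is not given here, so its 6 calls have no background.

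CD28 AYAA, CD28 Y170F and Ars2 KO gave no calls against WT at day 1 in the edgeR fit (background 3.61%, 0.0547% and 0.399%). In CD28 AYAA 6 of the 10 genes had an unadjusted p under 0.05, and DESeq2 called 3 and limma-voom 0. Shares of all genes called by DESeq2 and limma-voom are not given here, so their counts have no background. In CD28 AYAA, Ccnd2 stood at 983, 993 and 946 CPM, against 1262 and 1327 in WT, which is a log2 change of -0.41 (adjusted p = 0.077, SE 0.13). Ccne2 stood at 19.3, 18.7 and 28.3 CPM in CD28 AYAA, against 54.2 and 28.2 in WT, with -0.91 (adjusted p = 0.075, SE 0.29), and the groups of Ccne2 overlapped. Against WT number 1 alone Ccne1, Ccne2, Cdk2 and Cdkn2c were called lower (background 6.02%), with values of -1.20 (adjusted p = 0.0079) for Ccne1 and -1.33 (adjusted p = 0.016) for Ccne2. In CD28 Y170F no gene had an unadjusted p under 0.05, DESeq2 and limma-voom called 0, and log2 fold changes ran from -0.28 (Ccne2, SE 0.29) to 0.07 (Cdk6, SE 0.29). In Ars2 KO 2 genes had an unadjusted p under 0.05 and DESeq2 and limma-voom called 0. Those 2 were the INK4 inhibitors Cdkn2c, with 17.7, 20.4 and 13.9 CPM in Ars2 KO, against 14.2 and 6.18 in WT (0.71, adjusted p = 0.17, SE 0.21), and Cdkn2d, with 19.5, 18.1 and 15.0 in Ars2 KO, against 15.0 and 11.8 in WT (0.38, adjusted p = 0.17, SE 0.11). Both were called without WT number 1 (background 1.05%), and Cdkn2d also without Ars2 KO number 3.

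Set directly against CD28 Y170F at day 1, CD28 AYAA had no call in the fit without pairing (background 4.35%; 6 genes at an unadjusted p under 0.05, 1 by DESeq2, 0 by limma-voom). Libraries of the same number deviated together, with r of 0.22, 0.25 and 0.30, whereas at day 3 r was 0.02, 0.04 and 0.15. No label pairs these numbers, so the pairing was taken from the same counts. With the number as a block 8 genes were called. Ccnd2 stood at 983, 993 and 946 CPM in CD28 AYAA, against 1266, 1333 and 1196 in CD28 Y170F, with no overlap and a blocked log2 difference of -0.38 (adjusted p = 8.7e-05). Ccne2 stood at 19.3, 18.7 and 28.3 CPM in CD28 AYAA, against 30.4, 32.4 and 40.4 in CD28 Y170F, with a blocked value of -0.65 (adjusted p = 7.4e-05). Cdkn1b stood at 159, 137 and 161 CPM in CD28 AYAA, against 115, 97.0 and 113 in CD28 Y170F, with a blocked value of 0.49 (adjusted p = 3e-05). With the block, 7 genes were lower in CD28 AYAA (Ccnd2, Ccne1, Ccne2, Cdk2, Cdk4, Cdk6 and Cdkn2c) and Cdkn1b was higher, while Ccnd3 and Cdkn2d did not pass. The blocked fit covered these groups alone with its own filter, so its 8 calls cannot be set beside the 4.35% of the fit without pairing. It called 5878 genes in all. The number of genes it tested is not given here, so the 8 calls have no share as background.

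**Figure D4:**
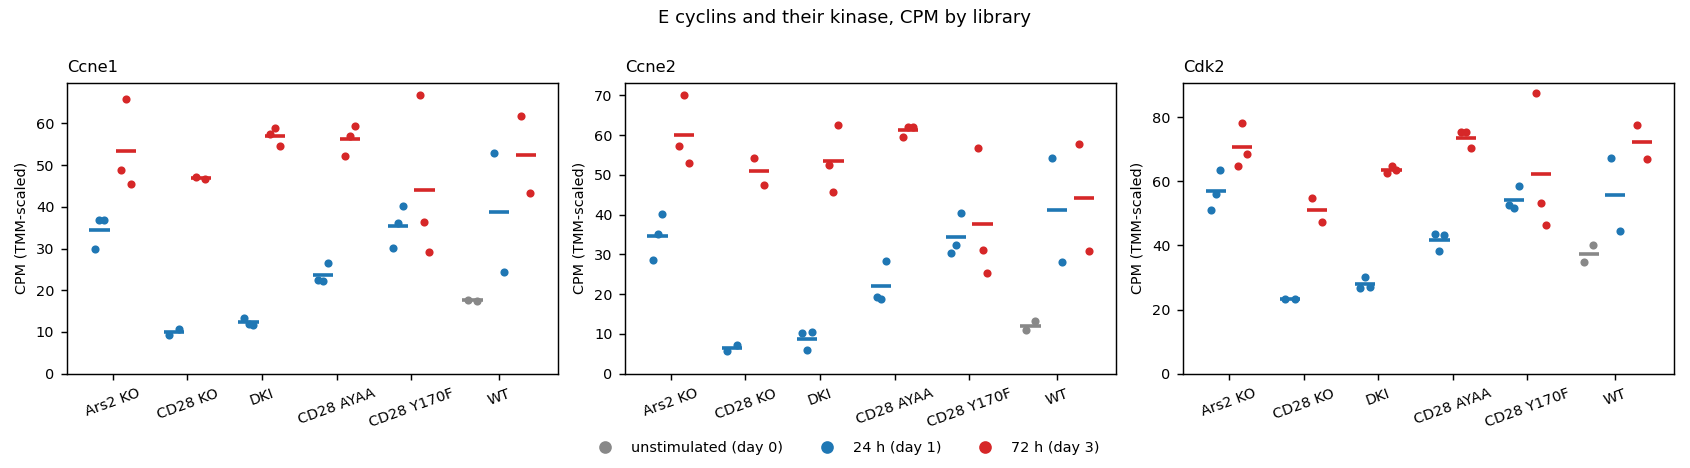
CPM (TMM scaled) of Ccne1, Ccne2 and Cdk2 in each library (points) with the group mean (bar), by genotype, in gray for unstimulated cells, blue for 24 h and red for 72 h. At 24 h both E cyclins lie below the unstimulated WT libraries in CD28 KO and DKI, and the WT libraries at 24 h lie far apart, at 53.0 and 24.4 CPM for Ccne1.

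At day 3, in Ars2 KO, CD28 KO, DKI and CD28 AYAA, Ccnd2, Ccnd3 and Cdk6 were higher and Cdkn1b and Cdkn2d lower than in WT, 5 of 10 genes in each. Of all genes, 12.9% were called in Ars2 KO (6.6% higher, 6.27% lower), 20% in CD28 KO (8.57% higher, 11.5% lower), 23.4% in DKI (10.3% higher, 13.1% lower) and 21.7% in CD28 AYAA (10.4% higher, 11.3% lower). All 4 comparisons share the same 2 WT libraries. The median log2 fold change over the 10 genes was 0.05 in Ars2 KO, -0.10 in CD28 KO, 0.18 in DKI and 0.22 in CD28 AYAA, and over all genes it was 0.02 in Ars2 KO, 0.01 in CD28 KO, -0.02 in DKI and -0.01 in CD28 AYAA. Cdk6 stood at 756, 994 and 671 CPM in Ars2 KO, 733 and 665 in CD28 KO, 921, 836 and 941 in DKI and 955, 1048 and 965 in CD28 AYAA, against 431 and 236 in WT. Every library of the 4 genotypes lay above both WT libraries. Log2 fold changes of Cdk6 were 1.27 (adjusted p = 0.0059, SE 0.30) in Ars2 KO, 1.07 (adjusted p = 0.019, SE 0.32) in CD28 KO, 1.43 (adjusted p = 0.0011, SE 0.30) in DKI and 1.57 (adjusted p = 0.00063, SE 0.30) in CD28 AYAA.

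Ccnd2 stood at 763, 810.4 and 629 CPM in Ars2 KO, 685 and 567 in CD28 KO, 780.1, 794 and 799 in DKI and 793, 762 and 716 in CD28 AYAA, against 459 and 372 in WT. The groups did not overlap, and log2 fold changes were 0.82 in Ars2 KO, 0.59 in CD28 KO, 0.93 in DKI and 0.86 in CD28 AYAA (SE 0.14 to 0.15). Those of Ccnd3 ran from 0.44 in CD28 KO to 0.55 in DKI (SE 0.12 to 0.13). Cdkn1b, the p27 gene, stood at 146, 95.4 and 163 CPM in Ars2 KO, 123 and 142 in CD28 KO, 85.4, 88.1 and 105 in DKI and 107, 97.5 and 105 in CD28 AYAA, against 213 and 223 in WT. Its log2 fold changes were -0.69 in Ars2 KO, -0.72 in CD28 KO, -1.23 in DKI and -1.08 in CD28 AYAA (SE 0.19 to 0.21), and every one of these libraries lay below WT. Cdkn2d stood at 38.5, 40.4 and 45.3 CPM in Ars2 KO, 25.0 and 25.2 in CD28 KO, 29.1, 31.7 and 27.3 in DKI and 35.1, 29.6 and 32.4 in CD28 AYAA, against 57.1 and 55.1 in WT, again without overlap. Its log2 fold changes ran from -1.16 in CD28 KO to -0.44 in Ars2 KO.

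The E cyclins, Cdk2, Cdk4 and Cdkn2c gave no call against WT at day 3 in any of these genotypes. In CD28 KO, Cdk2 stood at 54.8 and 47.1 CPM, against 77.4 and 66.8 in WT (-0.50, adjusted p = 0.07, SE 0.19), and Cdkn2c at 43.3 and 39.3 in CD28 KO, against 55.6 and 61.6 in WT (-0.50, adjusted p = 0.11, SE 0.22). Against WT number 1 alone, the one nearer in depth, 1 gene was called in Ars2 KO (Ccnd2, background 3.68%), 1 in CD28 KO (Cdkn2d, background 10.4%) and 4 in CD28 AYAA (all of the 5 but Ccnd3, background 6.91%). Against WT number 4 alone, 3 were called in Ars2 KO (background 9.24%), 4 in CD28 KO (13.9%) and 5 in CD28 AYAA (19.1%). DKI kept all 5 against WT number 4, which is like it in depth (background 18.3%), and 3 against WT number 1 (background 11.2%). In CD28 KO there was 1 call without one of its 2 libraries (background 11.2%) and 2 without the other (9.2%), and in a fit to Ars2 KO and WT alone there were 0. The 6 NK cell markers summed to 142 to 306 CPM in Ars2 KO, 334 to 421 in CD28 KO, 280.5 to 316 in DKI and 264 to 392 in CD28 AYAA, against 60.2 to 121 in CD28 Y170F and 69.7 to 123 in WT. Of the 6, called higher than WT were 1 in Ars2 KO, 4 in CD28 KO, 3 in DKI and 2 in CD28 AYAA, and none was at 0 in any group. The 14 myeloid markers summed to 35.7 to 51.1 CPM in Ars2 KO, against 27.7 to 27.8 in WT, where Adgre1, Csf3r, S100a8, S100a9 and Clec7a were at 0. The 12 T cell markers summed to 3238 to 3357 CPM in Ars2 KO, 3334 to 3392 in CD28 KO, 3573 to 3794 in DKI and 3484 to 3849 in CD28 AYAA, against 3719 to 3788 in WT. Of these 12, called lower than WT were 6 in Ars2 KO, 9 in CD28 KO, 9 in DKI and 6 in CD28 AYAA. The sums of DKI and CD28 AYAA still overlapped those of WT. How many T cell markers were called higher, and how many NK cell markers lower, is not given here. The part of any of these markers in the day 3 differences was not tested.

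CD28 Y170F had no call against WT at day 3 (background 0.0273%; 0 genes at an unadjusted p under 0.05, 0 by DESeq2 and limma-voom). Its libraries differed among themselves, with Cdk6 at 421, 219.8 and 129 CPM across the 3 libraries. Without number 1, the highest, Cdk6 (-0.94, adjusted p = 0.02), Cdk4 (-0.54, adjusted p = 0.036) and Cdk2 (-0.54, adjusted p = 0.024) were called lower than in WT (background 6.34%). Set against CD28 Y170F at day 3, CD28 AYAA had 7 genes called (background 36.8%, 17.6% higher and 19.2% lower), with Ccnd2, Ccnd3, Ccne2, Cdk4 and Cdk6 higher and Cdkn1b and Cdkn2d lower. Cdk6 stood at 955, 1048 and 965 CPM in CD28 AYAA, a log2 difference of 1.95 (adjusted p = 5.1e-06, SE 0.27) over CD28 Y170F, and Ccnd2 at 793, 762 and 716 in CD28 AYAA, against 475, 355 and 313 in CD28 Y170F (0.99, adjusted p = 1.4e-06, SE 0.12). Cdkn1b stood at 107, 97.5 and 105 CPM in CD28 AYAA, against 195, 265 and 275 in CD28 Y170F (-1.25, adjusted p = 7.8e-06, SE 0.18). In these 3 genes the libraries of the alleles did not overlap, in a contrast that uses no WT library. They did not overlap in Ccnd3, Ccne2 and Cdkn2d either. Ccnd2, Ccnd3, Cdk6, Cdkn1b and Cdkn2d kept their calls without any one library, and Ccne2 and Cdk4 did not. Without CD28 Y170F number 1, 9 genes were called, all but Cdkn2c (background 44.6%).

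**Figure D5:**
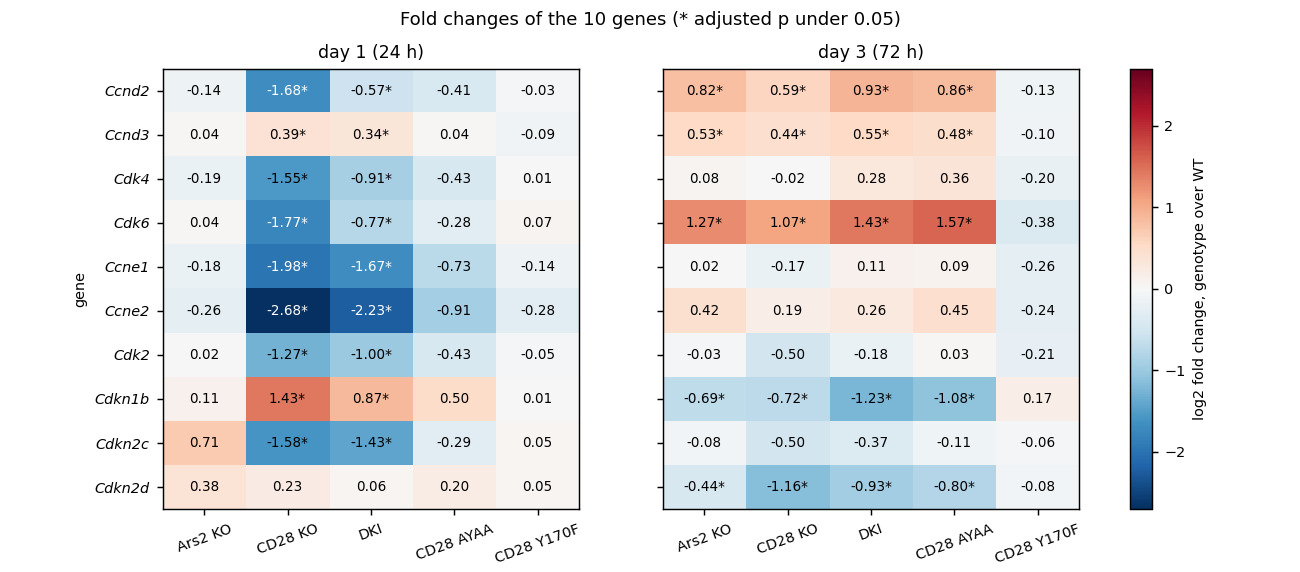
Heat map of the log2 fold changes of the 10 genes (rows) over WT of the same day in 5 genotypes (columns), at 24 h (left) and 72 h (right), red for higher and blue for lower, with the value in each cell and a star for an adjusted p under 0.05. Ccnd2 and Cdk6 in CD28 KO and DKI lie below 0 at 24 h and above 0 at 72 h, and Cdkn1b does the reverse.

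Within genotypes, the INK4 inhibitors Cdkn2c and Cdkn2d rose between day 1 and day 3 in all 6, WT included. For Cdkn2c, the log2 fold change was 1.68 in Ars2 KO, 3.55 in CD28 KO, 3.52 in DKI, 2.64 in CD28 AYAA, 2.36 in CD28 Y170F and 2.46 in WT (SE 0.18 to 0.26). Cdkn2c stood at 43.3 and 39.3 CPM at day 3 in CD28 KO, against 3.28 and 3.77 at day 1, and the lowest count of Cdkn2c in any library was 33. The E cyclins, Cdk2, Cdk4 and Cdk6 rose in CD28 KO (9 of 10 genes called, background 45.6%), DKI (8, background 47.4%) and CD28 AYAA (9, background 45.4%), while Cdkn1b fell. For Cdkn1b the day 3 to day 1 value was -1.13 in CD28 KO, -1.08 in DKI and -0.56 in CD28 AYAA, against 1.18 in CD28 Y170F and 1.02 in WT. Summed NK cell markers stood at 334 to 421 CPM at day 3 and 40.1 to 80.4 at day 1 in CD28 KO, 281 to 316 at day 3 and 56.4 to 67.9 at day 1 in DKI, and 264 to 392 at day 3 and 53.2 to 88.3 at day 1 in CD28 AYAA. They stood at 60.2 to 121 CPM at day 3 and 76.8 to 119 at day 1 in CD28 Y170F, and at 69.7 to 123 at day 3 and 92.7 to 114 at day 1 in WT. Of the 6 markers, 2 were called higher at day 3 in CD28 KO, 1 in DKI and 2 in CD28 AYAA, and their part in these changes and in the interactions was not tested. Ccnd2 rose in CD28 KO (0.63), gave -0.14 (adjusted p = 0.35, SE 0.12) in DKI, and fell in CD28 AYAA (-0.36), Ars2 KO (-0.68), CD28 Y170F (-1.73) and WT (-1.64). CD28 Y170F had 5 genes called (background 40.3%), Cdkn1b, Cdkn2c and Cdkn2d higher and Ccnd2 and Cdk6 lower. Without CD28 Y170F number 1 of day 3 it had 7 (background 43.3%), with Ccnd3 and Cdk4 added as lower. Ars2 KO had 5 (background 23.6%), Ccne1, Ccne2, Cdkn2c and Cdkn2d higher and Ccnd2 lower. Its numbers were taken to pair the libraries from the data and not the labels, and with the block 3 were called (Ccne2, Cdkn2c and Cdkn2d). With Ars2 KO number 2 of either day left out, 3 were called as well (Ccnd2, Cdkn2c and Cdkn2d). The counts with the block and without number 2 have no background, as their shares of all genes called are not given here.

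Whether a genotype's difference from WT itself changed between the days was tested as an interaction. It passed for 9 of 10 genes in CD28 KO (background 35.3%), 9 in DKI (32.5%), 6 in CD28 AYAA (24.4%) and 2 in Ars2 KO (3.68%). In CD28 Y170F it passed for 0 (background 0%; 0 at an unadjusted p under 0.05, 0 by DESeq2 and limma-voom). Without WT number 1 of day 1 it passed for 6 genes in CD28 KO (background 24.7%), the calls of Ccne1, Cdk2 and Cdkn2c being lost, for 7 in DKI (19.8%), those of Cdk2 and Cdkn2c being lost, and for 4 in CD28 AYAA (11.6%), those of Ccne2 and Cdk4 being lost. Without WT number 4 of day 3, CD28 AYAA also had 4 (11.3%). Cdk6 gave 2.83 (adjusted p = 3.7e-05, SE 0.45) in CD28 KO, 2.20 (adjusted p = 0.00024, SE 0.41) in DKI and 1.85 (adjusted p = 0.0021, SE 0.41) in CD28 AYAA. Cdkn1b gave -2.15 (adjusted p = 1.1e-05, SE 0.30) in CD28 KO, -2.10 (adjusted p = 9.5e-06, SE 0.28) in DKI and -1.58 (adjusted p = 0.00028, SE 0.28) in CD28 AYAA. Ccnd3 was the gene that missed in CD28 KO and DKI, with 0.05 (adjusted p = 0.87, SE 0.18) in CD28 KO and 0.21 (adjusted p = 0.37, SE 0.17) in DKI: it was higher than WT on both days. The Ars2 KO calls, Ccnd2 and Cdkn2d, were not made with the block or in a fit to the groups alone, where 0 genes were called in all. Leaving out Ars2 KO number 3 gave 4 calls (day 1) or 5 (day 3), and the Ccnd2 call was lost without WT number 4 at day 3. The share of all genes called without number 3 is not given here, so those counts have no background.

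Other genes of the pathway were counted in 5 lists, read beside the same background. Of 10 E2F target genes of S phase entry, 10 rose in WT at day 1 over unstimulated cells (median log2 fold change 1.74, against -0.02 over all genes tested), Rrm2, a ribonucleotide reductase subunit, by 2.62. All 10 fell in CD28 KO at day 1 (median -2.29, all genes 0.02) and in DKI (median -1.60, all genes 0.00), with Rrm2 at -3.31 in CD28 KO and -2.92 in DKI. At day 1, 2 of the list fell in CD28 AYAA, Rrm2 (-1.08, adjusted p = 0.028, SE 0.27) and Ccna2, the cyclin of S phase (-0.92, adjusted p = 0.045, SE 0.26). At day 3 the list gave 0 calls in Ars2 KO and CD28 KO and 1 each in DKI and CD28 AYAA, Cdc25a, a CDK phosphatase, at 0.79 in DKI and 0.84 in CD28 AYAA.

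Of 13 genes encoding retinoblastoma family and E2F proteins, 9 were lower and 2 higher in CD28 KO at day 1, E2f8 at -3.06 and Tfdp1 at -2.90, and 9 were lower and 1 higher in DKI, E2f8 at -2.69. At day 3, Rb1, the retinoblastoma gene, was lower in Ars2 KO (-0.30), CD28 KO (-0.62), DKI (-0.51) and CD28 AYAA (-0.46). Of 11 genes for the turnover of p27 and G1 cyclins, 8 were lower and 1 higher in CD28 KO at day 1 and 6 were lower in DKI. They included Skp2, which marks p27 for destruction, at -1.45 in CD28 KO and -0.87 in DKI, and its cofactor Cks1b, at -2.87 in CD28 KO and -1.68 in DKI. Among 8 further family members, the CDK inhibitor Cdkn1a (p21) rose in WT at day 1 over unstimulated cells (3.52) and was lower than WT at day 1 in CD28 KO (-2.28), DKI (-1.31) and CD28 AYAA (-1.25).

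Of 7 transcription factors known to act on these genes, Myc, an activator of Ccnd2 and Cdk4, rose in WT at day 1 (2.28, adjusted p = 5.1e-07, SE 0.29) and was lower in CD28 KO at day 1 (-1.62, adjusted p = 6.1e-05, SE 0.29). At day 3 Myc was higher in Ars2 KO (0.96, adjusted p = 0.017, SE 0.26), DKI (1.30, adjusted p = 0.00086, SE 0.27) and CD28 AYAA (1.20, adjusted p = 0.002, SE 0.26). Foxo1 and Foxo3, whose proteins activate Cdkn1b transcription, were lower at day 3 in Ars2 KO (-0.39 and -0.60), CD28 KO (-0.57 and -0.58), DKI (-0.69 and -0.80) and CD28 AYAA (-0.59 and -0.66). Foxo4 was higher at day 1 in CD28 KO (1.09), DKI (0.52) and CD28 AYAA (0.48). Values of Myc in DKI at day 1 and in CD28 KO at day 3 are not given here. Nor are those of Foxo1 and Foxo3 at day 1 and of Foxo4 at day 3. Myc, Foxo1 and Foxo3 were chosen after their values were seen, and the part of these factors in the differences was not tested. In CD28 Y170F, none of the 5 lists held a called gene against WT on either day. Counts per list at day 1 in Ars2 KO were 0 in 4 lists and 1 in this one, Stat5a (0.38, adjusted p = 0.04, SE 0.09).

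Across the 13 group means of log2 CPM, Ccne1, Ccne2, Cdk2 and Cdk4 moved almost together, with pairwise Pearson r of 0.93 to 0.99. Cdkn2c followed them at 0.75 to 0.91, and Cdkn1b ran against Cdk6 at -0.84 and against Cdk4 at -0.79. Ccnd3 was near 0 with the E cyclins, at 0.02 with Ccne1 and 0.08 with Ccne2, and stood at 0.57 with Ccnd2 and 0.61 with Cdk6. These are descriptions over 13 points that share stimulation, genotype and depth, and no p was computed. Among 8499 other genes with a mean log2 CPM above 3, the pattern nearest to Ccne1 was that of Polq (r = 0.99), to Ccne2 Rrm1 (0.99), to Cdk2 Syce2 (0.997), to Cdk4 Cisd1 (0.99), to Cdkn2c Arhgap19 (0.99) and to Cdk6 Crtap (0.99). The nearest to Ccnd2 was Txn2 (0.98), to Ccnd3 Tmppe (0.97), to Cdkn1b Jakmip1 (0.99) and to Cdkn2d Arhgap18 (0.98). Over the 12 stimulated groups alone, Polq, Syce2, Tmppe and Jakmip1 were again the nearest, while Cisd1 ranked 3, Rrm1, Crtap and Arhgap19 ranked 4, Txn2 ranked 7 and Arhgap18 ranked 12.

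In the order of group means, Ccnd2 was highest in WT at day 1 (1294 ± 46.4 CPM, SD, n = 2), whose libraries overlapped those of CD28 Y170F at day 1 (1265 ± 68.8, n = 3), themselves overlapping Ars2 KO at day 1. It was lowest in unstimulated WT (193 ± 1.56), next below CD28 Y170F at day 3 (381 ± 84.2), and these neighbours did not overlap. Cdk6 was highest in CD28 AYAA at day 3 (989 ± 51.0), clear of DKI at day 3 (899 ± 56.0), which overlapped Ars2 KO at day 3 (807 ± 168). Cdkn1b was highest in CD28 KO at day 1 (291 ± 0.845) and lowest in DKI at day 3 (92.7 ± 10.5), which overlapped CD28 AYAA at day 3 (103 ± 5.01). Cdkn2d was highest in WT at day 3 (56.1 ± 1.42), overlapping CD28 Y170F at day 3 (53.0 ± 2.29), and lowest in WT at day 1 (13.4 ± 2.23). The lowest level of any of the genes was Cdkn2c at 3.28 CPM in a library labelled CD28 KO, and the highest was Ccnd2 at 1369 CPM in an Ars2 KO library, both at day 1.

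Ccnd3 was highest in CD28 KO at day 1 (315 ± 44.8 CPM), its libraries overlapping those of DKI at day 1 (303 ± 16.6). The lowest mean of Ccnd3 was in unstimulated WT (135 ± 12.3), clear of CD28 Y170F at day 3 (189.9 ± 18.1). Ccne1 was highest in DKI at day 3 (56.9 ± 2.23 CPM), its libraries overlapping those of CD28 AYAA at day 3 (56.2 ± 3.62). The lowest mean of Ccne1 was in CD28 KO at day 1 (9.92 ± 1.01), clear of DKI at day 1 (12.3 ± 0.819). Ccne2 was highest in CD28 AYAA at day 3 (61.2 ± 1.50 CPM), its libraries overlapping those of Ars2 KO at day 3 (60.1 ± 8.84). The lowest mean of Ccne2 was in CD28 KO at day 1 (6.47 ± 1.17), overlapping DKI at day 1 (8.85 ± 2.52). Cdk2 was highest in CD28 AYAA at day 3 (73.6 ± 2.90 CPM), its libraries overlapping those of WT at day 3 (72.1 ± 7.52). The lowest mean of Cdk2 was in CD28 KO at day 1 (23.3 ± 0.124), clear of DKI at day 1 (27.9 ± 1.83). Cdk4 was highest in CD28 AYAA at day 3 (230.0 ± 17.5 CPM), its libraries overlapping those of DKI at day 3 (219 ± 9.17). The lowest mean of Cdk4 was in CD28 KO at day 1 (64.2 ± 9.35), clear of DKI at day 1 (100.1 ± 4.32). Cdkn2c was highest in WT at day 3 (58.6 ± 4.25 CPM), its libraries overlapping those of CD28 Y170F at day 3 (56.0 ± 3.82). The lowest mean of Cdkn2c was in CD28 KO at day 1 (3.52 ± 0.348), overlapping DKI at day 1 (3.95 ± 0.459).

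Cdk4, the kinase that shares D cyclins with Cdk6, stood at day 1 at 146, 165 and 182 CPM in Ars2 KO, 57.6 and 70.9 in CD28 KO, 97.4, 97.8 and 105 in DKI, 129, 141 and 148 in CD28 AYAA and 178, 189 and 199 in CD28 Y170F, against 221 and 154 in WT. At day 3 Cdk4 stood at 181, 226 and 164 CPM in Ars2 KO, 184 and 171 in CD28 KO, 219.7, 227 and 209 in DKI, 211, 246 and 233 in CD28 AYAA and 222, 132 and 115 in CD28 Y170F, against 206 and 153 in WT. The spread of Cdk4 between genotypes was thus wide at day 1, where the 5 libraries of CD28 KO and DKI lay below all other libraries of that day, and at day 3 the WT range lay inside that of CD28 Y170F. Ccne1 at day 1 stood at 29.8, 36.9 and 36.7 CPM in Ars2 KO, 9.20 and 10.6 in CD28 KO, 13.2, 11.9 and 11.8 in DKI, 22.4, 22.2 and 26.6 in CD28 AYAA and 30.1, 36.1 and 40.2 in CD28 Y170F, against 53.0 and 24.4 in WT. At day 3 Ccne1 stood at 48.9, 65.9 and 45.5 CPM in Ars2 KO, 47.1 and 46.6 in CD28 KO, 57.5, 58.9 and 54.5 in DKI, 52.2, 57.1 and 59.3 in CD28 AYAA and 66.9, 36.3 and 29.1 in CD28 Y170F, against 61.7 and 43.3 in WT. At day 1 CD28 KO and DKI were the lowest of Ccne1 also, and at day 3 every genotype overlapped the WT range.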

How the data were processed

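Values were expected counts per gene for 34 libraries, deposited by the authors in 1 table (0 columns unused). Per the labels' protocols, ribosomal RNA was removed and strand was marked with dUTP. Per the submitters' processing notes, the tools were RSEM, STAR, limma, FastQC and bcl2fastq (2.20), with builds mm10 and GRCm38. Their roles, the annotation release and the strand setting are not given in the sources used here, so reads of overlapping antisense genes cannot be told apart. Columns were matched by group and number, but the CD28 KO day 3 columns only to their group. Of 48526 identifiers 48144 matched GENCODE M21 (GRCm38).

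After rounding, edgeR 4.0.16 (R 4.3.3) was fitted to these counts with TMM factors, the default filter on low counts (18292 genes left), 1 mean per group and quasi-likelihood F tests. The threshold was a Benjamini-Hochberg adjusted p of 0.05 over all genes, and the SE was the log2 fold change over the square root of F. The spread was estimated over all groups. limma 3.58.1 (voom), DESeq2 1.42.0, RLE factors, no filter, the compared groups alone, a replicate block, a depth term (DKI and WT number 4 against the rest) and each library left out were the alternatives. On simulated counts for CD28 KO against WT at day 1 the test was checked first. Tables were made in Python 3.11.15 (pandas 2.3.3, numpy 2.4.6) and plots with matplotlib 3.10.9.

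Deviations from group means of same-numbered libraries correlated at 0.22, 0.25 and 0.30 for CD28 AYAA and CD28 Y170F at day 1, and at 0.20, 0.19 and 0.11 for Ars2 KO between the days. These were the contrasts with 3 pairs all over 0.1, so there the numbers were taken to pair the libraries, from the data and not the labels. Between the days, CD28 AYAA (0.14, 0.03 and 0.25), CD28 Y170F (0.12, 0.09 and 0.24), DKI (0.02, 0.02 and 0.006) and WT (0.24) missed this rule. Each day 3 library of these genotypes still correlated best with the day 1 library of its number. Pairing is thus possible there, and the main fit treats those libraries as independent. The 10 genes are always named, with up to 3 genes of smallest p per list and comparison, and the gene of highest r. Other list genes with values (Rb1, Skp2, Cks1b, Cdkn1a, Myc, Foxo1 and Foxo3 beyond that rule) were chosen after their values were seen. One list of markers is not reported here. Genes and lists were chosen with earlier results of these data known.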

Additional observations from a re-analysis of the deposited data

Results flagged for a closer look

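The differences of 4 genotypes from WT at day 3 differed from those at day 1 by an interaction term in the edgeR fit (day 3 minus day 1 values, log2). In CD28 KO the values were 2.27 for Ccnd2, 1.81 for Ccne1, 2.87 for Ccne2, 0.77 for Cdk2, 1.53 for Cdk4, 2.83 for Cdk6, -2.15 for Cdkn1b, 1.08 for Cdkn2c and -1.39 for Cdkn2d. In DKI they were 1.50 for Ccnd2, 1.78 for Ccne1, 2.49 for Ccne2, 0.82 for Cdk2, 1.19 for Cdk4, 2.20 for Cdk6, -2.10 for Cdkn1b, 1.06 for Cdkn2c and -0.99 for Cdkn2d. In CD28 AYAA they were 1.27 for Ccnd2, 1.36 for Ccne2, 0.78 for Cdk4, 1.85 for Cdk6, -1.58 for Cdkn1b and -0.99 for Cdkn2d. In Ars2 KO they were 0.96 for Ccnd2 and -0.82 for Cdkn2d. All of these use the same 4 WT libraries.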

How the results depend on the processing

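Of 217 called fold changes of the 10 genes, 217 kept their direction and call with DESeq2, 216 with RLE factors, 211 with limma-voom, 209 with the depth term, 214 without the filter and 199 in a fit to the compared groups alone. Of the fold changes not called, 11 became called with DESeq2, 2 with RLE factors, 2 with limma-voom, 10 with the depth term, 19 without the filter and 25 in the fit to the compared groups alone. Leaving out 1 library at a time was counted per fold change and library left out, so these counts exceed 217. Of such instances of a called fold change, 1041 were kept, 126 were lost and none turned, and 32 instances of one not called became called. Cdkn2c in WT at day 1 against unstimulated cells was not called and turned to -0.78, called, without WT number 1 (0.48 without number 4). Counts of genes called against WT at day 1 were 0 to 2 with a library left out in Ars2 KO (0 with all) and 1 to 8 in DKI (9 with all). In CD28 AYAA they were 0 with all, 3 without the filter, 3 with DESeq2, 5 with the depth term, 1 in the fit to 2 groups and 0 to 4 with a library left out. Against WT at day 3, leaving out a library gave 1 to 5 in Ars2 KO, 1 to 4 in CD28 KO, 3 to 5 in DKI and 0 to 3 in CD28 Y170F, and the fit to 2 groups gave 0 in Ars2 KO. Against unstimulated cells at day 1, CD28 KO had 5 to 6 with a library left out, DKI 9 with the replicate block, and CD28 AYAA 8 in the fit to 2 groups and 9 with the block. Between the days Ars2 KO had 3 with the block and 3 to 6 with a library left out. Its interaction had 4 without the filter, 5 with DESeq2, 0 in the fit to its groups, 0 with the block and 1 to 5 with a library left out. DKI over CD28 KO had 5 with the depth term, 1 with limma-voom and 1 with any library left out at day 1, and 6 in the fit to 2 groups at day 3. CD28 AYAA over CD28 Y170F at day 1 had 5 without the filter, 1 with DESeq2, 7 in the fit to 2 groups and 8 with the block. Shares of all genes called in these fits are not given here, so these counts have no background. The cause of these changes was not tested. Elsewhere the rule used for pairing was not met, which does not exclude pairing. For CD28 AYAA over CD28 Y170F at day 3 the block left 5 calls. Over all contrasts fitted with the block, 126 called fold changes were kept and 8 were lost, and 23 others became called. Depth limits Cdkn2c and Ccne2 most, with lowest counts of 33 and 53.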
